A study of Mus musculus with 6 samples.

Results

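The genes described here are 5 matrix metalloproteinases (Mmp2, Mmp3, Mmp9, Mmp14 and Mmp15) and the 4 tissue inhibitors of metalloproteinases (Timp1, Timp2, Timp3 and Timp4). They were chosen by gene symbol, and all 9 were found, on 10 of the array's 55681 gene probes. Of the 9 genes, 8 passed the filter on dim probes and were tested among 20906 genes. Probes that matched no gene symbol count among the 20906 under their array names, so the shares of all genes below include them. The samples were total RNA from the gastrocnemius, a calf muscle, of male mice aged 13 weeks (Young, 3 samples) or 25 months (Old, 3 samples). No strain, allele or treatment is given in the sources used here, so age is the only stated difference. RNA from each sample carried the dye Cy3, on a single-colour Agilent array of its own. Nothing in the labels says that the samples came from separate animals, so p-values cover only the variation among these 6 samples, some of which may be technical.

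Metalloproteinases are zinc-dependent enzymes that cut proteins of the extracellular matrix and proteins at the cell surface. They are made as inactive proenzymes, in which a cysteine of the propeptide blocks the zinc until the propeptide is removed. Timps bind the active enzymes and block them, and they can also hold a proenzyme in place: Timp2 links the proenzyme of Mmp2 to Mmp14, which starts its activation. In skeletal muscle these enzymes act on the basement membrane around each fibre, on the interstitial collagen and on proteins of the neuromuscular junction. An array measures transcripts, so none of the values below is an enzyme activity.

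Values are log2 signals relative to the 75th percentile of the same array, so a value of 0 is a signal equal to that percentile. Levels of different probes cannot be set against each other on this scale. A probe counted as well above background where the scanner software flagged it so. All 12 listed markers of muscle fibres were well above background on all 6 arrays. Old replicate 1 stood apart on the control spots. Its negative controls averaged 61.3, where the other 5 arrays gave 51.9 to 55.1, and its spike-ins had a slope of 0.840, where the others gave 0.925 to 0.941. Young replicate 3 had the lowest 75th percentile of processed signal, 243, where the other 5 arrays gave 302 to 368. The array weights that limma estimated for an alternative fit were 0.45 for Old replicate 1 and 0.53 for Young replicate 3. Those of the other arrays ran from 1.16 to 2.04. The number of arrays limits the precision.

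None of the 8 members passed limma's test at an adjusted p (Benjamini-Hochberg) under 0.05. Of all genes tested 53 (0.254%) passed it, of which 41 (0.196%) were higher and 12 (0.0574%) lower in Old, or 26 and 16 with median centring. At an unadjusted p under 0.05 there were 2 members, Mmp3 and Timp1, both higher in Old, against 14.5% of all genes in either direction and 6.07% in that direction. The Old and Young values of 3 members did not overlap, against 21.8% of all genes. Of these, Mmp3 and Timp1 were higher in every Old sample (7.92% of all genes were) and Timp3 was lower in every Old sample (13.9% of all genes were). The 8 differences had a median of -0.08 on the log2 scale, beside -0.06 over all genes tested. They ran from -0.36 for Timp3 to 3.93 for Mmp3, and 4 were positive and 4 negative. The other 6 members lay between -0.36 and 0.34.

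**Figure D1:**
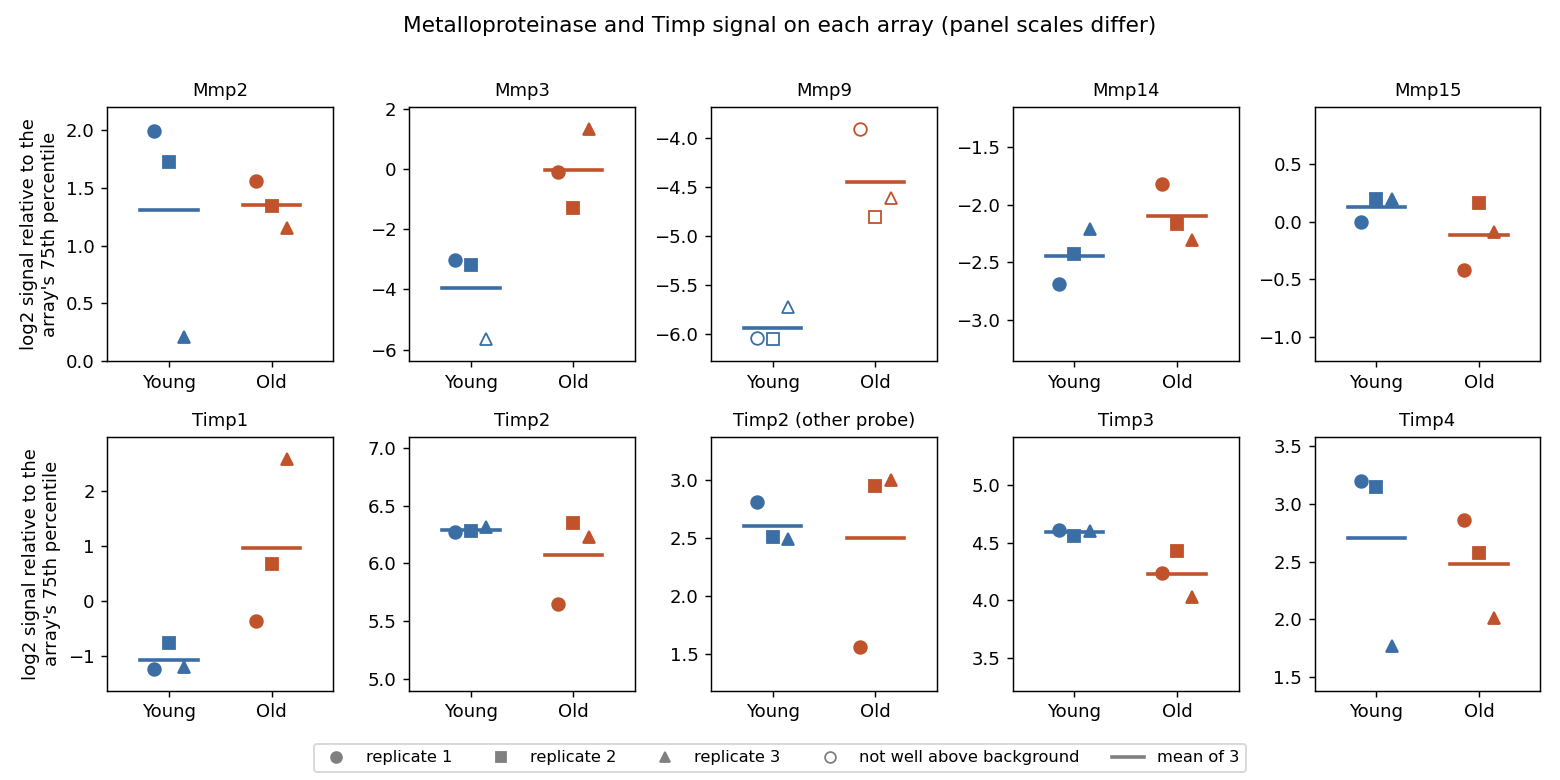
The log2 signal of each member relative to the array's 75th percentile (vertical axis, a different scale in each panel) is plotted for the 3 Young and 3 Old arrays, with a bar at the mean of 3; open symbols are arrays on which the probe was not well above background. For Mmp3 and Timp1 every Old array lies above every Young array, for Timp3 every Old array lies below, and all 6 symbols of Mmp9 are open.

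Mmp3, or stromelysin-1, cuts proteoglycans, laminin and fibronectin, activates other proenzymes, and is known to remove agrin from the neuromuscular junction. Its log2 signal was -3.03, -3.18 and -5.65 in Young replicates 1, 2 and 3, the last of these not well above background. In Old replicates 1, 2 and 3 it was -0.10, -1.31 and 1.33, well above background each time. The lowest Old value lay above the highest Young value, and the spread within each age was wide (SD 1.47 in Young and 1.32 in Old, n = 3 each). The log2 difference was 3.93 ± 0.89 (SE, 3 arrays per age), a 15.2-fold higher signal with a 95% interval from 3.53-fold to 65.3-fold, in which Young replicate 3 enters at its unmeasured value. With that value raised to the dimmest signal called above background on its array (-3.88), the log2 difference was 3.33 ± 0.62, or 10.1-fold, with an adjusted p of 0.0944 by limma. Limma's p was 0.00322 before and 0.152 after Benjamini-Hochberg adjustment over all genes.

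The size of the Mmp3 difference depended on how dim signals were treated. With normexp background correction, whose offset compresses dim signals, the log2 difference was 1.69 ± 0.43. Without Young replicate 3, the array on which the probe was not above background, it was 3.08 ± 0.72.

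Timp1 is the inducible inhibitor of the family and also binds the tetraspanin Cd63 at the cell surface. Its log2 signal was -1.22, -0.77 and -1.20 in Young replicates 1 to 3 and -0.36, 0.67 and 2.58 in Old replicates 1 to 3. The Young samples lay close together (SD 0.26, n = 3) and the Old samples far apart (SD 1.49, n = 3), from just above the Young range to far above it. The log2 difference was 2.03 ± 0.68, or 4.08-fold higher in Old with a 95% interval from 1.33-fold to 12.5-fold. Limma's p was 0.0213 before and 0.272 after Benjamini-Hochberg adjustment over all genes. Without Old replicate 3 the log2 difference was 1.22 ± 0.35.

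The arrays of the ages were not spread evenly over the slide. Old replicates 2 and 3 lay in one row of the slide, and Old replicate 1 and all Young arrays in the other. A fit with this row as a block therefore rests on Old replicate 1 against the 3 Young arrays. In it the log2 difference of Timp1 was 0.71 ± 0.69 and that of Mmp3 was 3.85 ± 1.34. The row and the low Timp1 value of Old replicate 1 itself cannot be told apart here.

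**Figure D2:**
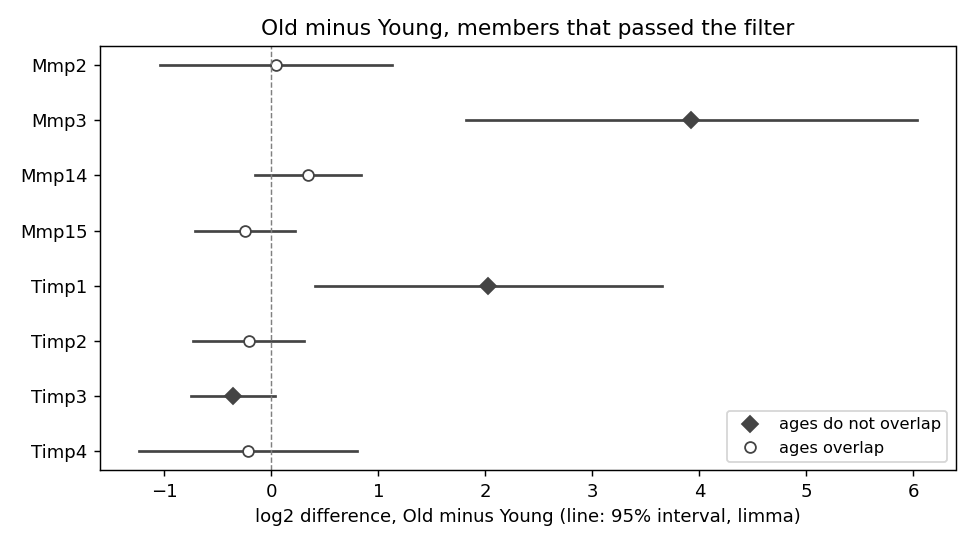
The log2 difference, Old minus Young, of the 8 members that passed the filter (points) is drawn with its 95% interval from limma (lines); filled diamonds mark members whose ages do not overlap. The intervals of Mmp3 and Timp1 lie above 0 and those of the other 6 members include 0, before any adjustment for the number of genes.

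Timp3 is the inhibitor that stays bound to the matrix and also blocks Adam17 and several aggrecan-cutting Adamts enzymes. Its log2 signal was 4.61, 4.56 and 4.60 in Young and 4.24, 4.43 and 4.02 in Old replicates 1 to 3. Every Old value lay below every Young value. The difference was small, at -0.36 ± 0.17, or 1.28-fold lower in Old, and limma's adjusted p was 0.381. Its 95% interval ran from -0.75 to 0.03 on the log2 scale, which spans 1.69-fold lower to 1.02-fold higher in Old.

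The stretches before the annotated starts of Mmp3, Timp1 and Timp3 are shown because these are the members whose ages did not overlap. They are the 250 bases before each start, from RefSeq on GRCm38.p6, which held such a stretch for 7 of the 9 members. Mmp3 is at chr9:7445572-7445821 on the plus strand, Timp1 at chrX:20869916-20870165 on the plus strand and Timp3 at chr10:86300162-86300411 on the plus strand. Capitals mark matches, on either strand, to the letters of an AP-1 site, a TATA box, a GC box or an ETS core.
Mmp3: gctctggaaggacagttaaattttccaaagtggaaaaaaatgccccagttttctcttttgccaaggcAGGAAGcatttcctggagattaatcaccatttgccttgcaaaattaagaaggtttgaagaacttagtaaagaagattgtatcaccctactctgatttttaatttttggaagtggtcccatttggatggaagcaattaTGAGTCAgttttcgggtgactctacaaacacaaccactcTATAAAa
Timp1: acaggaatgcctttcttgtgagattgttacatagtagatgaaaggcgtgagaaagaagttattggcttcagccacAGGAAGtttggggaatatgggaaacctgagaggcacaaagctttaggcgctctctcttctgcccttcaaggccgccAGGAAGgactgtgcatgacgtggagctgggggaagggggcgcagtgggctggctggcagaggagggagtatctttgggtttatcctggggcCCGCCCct
Timp3: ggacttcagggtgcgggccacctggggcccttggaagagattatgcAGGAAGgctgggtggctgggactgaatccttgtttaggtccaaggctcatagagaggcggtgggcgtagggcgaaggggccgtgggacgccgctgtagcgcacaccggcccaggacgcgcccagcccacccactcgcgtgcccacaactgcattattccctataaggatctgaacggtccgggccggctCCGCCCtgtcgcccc

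AP-1 is the dimer of Fos and Jun proteins, and its letters, searched as TGANTCA, read alike on both strands. Among the 7 members with a stretch, Mmp3 alone held an AP-1 match, 46 to 40 bases before the start, and a match to the TATA box, searched as TATAAA, 7 to 2 bases before it. Of all 32851 stretches of this length in the table, 6.75% held the AP-1 letters and 12.4% the TATA box letters. The GC box, searched as GGGCGG, was matched in 5 of the 7 members (Mmp14, Mmp15, Timp1, Timp2 and Timp3), against 32.7% of all stretches, and not in Mmp3. The ETS core, searched as AGGAAG, was matched in 5 (Mmp3, Mmp14, Timp1, Timp3 and Timp4), against 29.5%. An NF-kB motif was matched in 0 of the 7, against 1.41%. No 2 different motifs shared bases in these stretches. A match is a run of letters and does not show that a factor binds there.

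Mmp2 and Mmp9 are the gelatinases, which cut denatured collagen and collagen IV of basement membranes. Mmp2 had a log2 signal of 1.99, 1.72 and 0.20 in Young and 1.56, 1.34 and 1.15 in Old replicates 1 to 3. The ages overlapped, and Young replicate 3 lay below all other arrays. Between the ages it differed by 0.04 ± 0.46, with a 95% interval from -1.04 to 1.13 and an adjusted p of 0.971 by limma. Its sign turned with median centring (-0.10). Without Young replicate 3 it was -0.51 ± 0.21, with an adjusted p of 0.417 by limma.

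Mmp9 was printed on the array as 10 spots of 1 probe, which were averaged. None of the 10 spots was well above background on any Young array, nor on Old replicates 2 and 3, and 1 of them was on Old replicate 1. Its log2 signal was -6.04, -6.05 and -5.72 in Young and -3.90, -4.81 and -4.61 in Old replicates 1 to 3. The Old values were all the higher ones, but both ages lay below the level that counts as measured, so no fold is given. Old replicate 1, with the highest value, was also the array with the highest negative-control signal, whose part in this result was not tested.

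Mmp14 and Mmp15 are membrane-type metalloproteinases, anchored at the cell surface, and Mmp14 is the main activator of the Mmp2 proenzyme. For Mmp14 the log2 signal was -2.69, -2.42 and -2.21 in Young and -1.82, -2.17 and -2.31 in Old replicates 1 to 3. The ages overlapped, with Old replicate 1 the highest of the 6. On the log2 scale Old minus Young was 0.34 ± 0.21 (95% interval -0.15 to 0.83, limma's adjusted p = 0.485).

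For Mmp15 the signal was 0.00, 0.19 and 0.20 in Young and -0.42, 0.16 and -0.09 in Old replicates 1 to 3. Old replicate 2 lay within the Young range and the other Old samples below it. Old minus Young was -0.24 ± 0.20 on this scale (95% interval -0.71 to 0.22, limma's adjusted p = 0.592).

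Timp2 is a widely made inhibitor and, with Mmp14, part of the complex that activates Mmp2. Its log2 signal was 6.27, 6.28 and 6.31 in Young and 5.65, 6.35 and 6.23 in Old replicates 1 to 3. The Young samples lay close together (SD 0.022, n = 3), and Old replicate 1 was low while the other Old samples lay near the Young ones. The log2 difference was -0.21 ± 0.22 (95% interval -0.73 to 0.30, limma's adjusted p = 0.675). The other Timp2 probe read 2.81, 2.51 and 2.49 in Young and 1.55, 2.95 and 3.00 in Old, a log2 difference of -0.10. On both probes Old replicate 1 was the lowest array, and on the other probe the remaining Old samples lay above all Young ones.

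Timp4 is the member with the most restricted pattern, known from heart, muscle and fat. Its log2 signal was 3.19, 3.15 and 1.77 in Young and 2.86, 2.57 and 2.01 in Old replicates 1 to 3. Young replicate 3 was the lowest array, as it was for Mmp2 and Mmp3, and the ages overlapped. The log2 difference was -0.22 ± 0.43 (95% interval -1.24 to 0.80, limma's adjusted p = 0.834).

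Differences between members within an array do not depend on how arrays were scaled to each other. The log2 signal of Mmp3 minus that of Timp1 was -1.80, -2.41 and -4.45 in Young and 0.26, -1.98 and -1.25 in Old replicates 1 to 3. The ages overlapped. The Young replicate 3 value rests on an Mmp3 signal not above background, and it was -2.68 with that signal raised as above, which left the mean higher in Old by 1.31 in place of 1.90. For Mmp14 minus Timp2 it was -8.96, -8.70 and -8.53 in Young and -7.47, -8.52 and -8.54 in Old. Only Old replicate 1 stood clear of the other arrays on this measure. These differences are descriptions, with no test.

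The genes whose values over the 6 arrays were most like those of Mmp3, by Pearson correlation, were Dido1 (0.996), Bet1l (0.993), Pa2g4 (0.993), Pafah2 (0.992) and Map3k20 (0.992). Young replicate 3 entered at its Mmp3 signal of -5.65, not above background, and the genes named for Mmp3 were all lowest on that array. Those most like Timp1 were Ccl7 (0.996), Qsox1 (0.990), Tmem62 (0.990), Marveld2 (0.988) and Ears2 (0.988). These are the highest among the tested genes with a symbol, with predicted genes, Rik names and accessions left out. The 6 arrays share the 2 ages and the slide, and the likeness is given as a description. The monocyte chemokine Ccl7 read -3.88, -3.31 and -3.64 in Young and -3.02, -1.19 and 1.62 in Old replicates 1 to 3, a log2 difference of 2.75 ± 1.05 (limma's adjusted p = 0.314). Like Timp1, it was highest in Old replicate 3 and only slightly above the Young range in Old replicate 1, a likeness that follows from its choice by correlation.

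Among the other metalloproteinases, 3 of 18 listed genes passed the filter and 0 passed limma's test. Mmp23, an atypical family member with a membrane anchor at its amino end, had a log2 difference of 0.58 ± 0.20 (adjusted p = 0.285 by limma), and its ages did not overlap. Mmp17 had -0.26 ± 0.21 and Mmp11, or stromelysin-3, 0.02 ± 0.44. Of the other 15 genes, Mmp27 had no probe matched by accession, 10 were not well above background on any array and 4 were so on 1 or 2 arrays.

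Of these 4, Mmp8 is the collagenase of neutrophils. It was well above background on 2 of 3 Old arrays and on 0 of 3 Young arrays, with log2 signals of -6.39, -4.90 and -6.07 in Young and -3.11, -3.60 and -3.68 in Old. Every Old value lay above every Young value, and since the Young values and 1 Old value were not measured above background, no fold is given. Mmp3 and Mmp8 lie in a cluster of 10 metalloproteinase genes, in the order of the RefSeq table. Of the 9 cluster genes with a probe, Mmp3 alone passed the filter on dim probes.

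Adam and Adamts enzymes are related proteases, and Adam17 and several Adamts enzymes are targets of Timp3. Of 20 listed genes 16 were tested and 0 passed limma's test after adjustment, with a median log2 difference of -0.13. At an unadjusted p under 0.05 there was 1 higher and 3 lower, against 6.07% and 8.39% of all genes. Adam8, a protease of myeloid cells, had 0.99 ± 0.23. Adamts8 had -1.93 ± 0.46, Adamts2, which trims the amino end of procollagens, -0.59 ± 0.18, and Adamts10 -0.77 ± 0.28. Limma's adjusted p for these 4, named for their low p, ran from 0.153 to 0.298. The ages of each did not overlap, and those of the other 12 tested genes did. Of all genes, 21.8% had ages that did not overlap.

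The list of activators, other inhibitors and clearance receptors held 23 genes, of which 20 were tested. None passed limma's test after adjustment, and 1 of 20 had an unadjusted p under 0.05, against 14.5% of all genes. That gene was Serpine2, a serpin that blocks thrombin and plasminogen activators, at -0.72 ± 0.22 (limma's adjusted p = 0.233). Furin, which removes the propeptide of Mmp14, had -0.36 ± 0.19. Cd63, the surface partner of Timp1, had 0.45 ± 0.23, and the lipocalin Lcn2 had 1.20 ± 0.58 with 3.25 in Old replicate 3 and 0.76 in Old replicate 2. The median of the list was -0.04.

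Of the matrix proteins that these enzymes cut, 26 were tested and 19 (73.1%) had a negative difference, beside 56.9% of all genes. Their median was -0.18, and whether the list differs from other genes was not tested. At an unadjusted p under 0.05, 7 were lower and 0 higher, against 8.39% and 6.07% of all genes, and 0 passed limma's test after adjustment. The basement membrane genes Lamc1, a laminin chain, and Nid1, nidogen, had -0.73 ± 0.16 and -0.71 ± 0.17. The collagen I chains Col1a1 and Col1a2 had -1.56 ± 0.56 and -1.54 ± 0.36. Limma's adjusted p for these 4 ran from 0.150 to 0.291. For Col1a2 the log2 signal was 6.20, 6.30 and 6.42 in Young and 3.97, 4.88 and 5.46 in Old replicates 1 to 3, so Old replicate 1 was the lowest.

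The list of cytokines, cytokine receptor chains (Il6st and Osmr) and transcription factors known to act in inducing metalloproteinases or Timp1 held 23 genes. Of these, 20 were tested and 15 (75%) had a positive difference, beside 43.1% of all genes, with a median of 0.21. The list was chosen with earlier results of these data known, and whether it differs from other genes was not tested. At an unadjusted p under 0.05, 4 were higher and 0 lower, against 6.07% and 8.39% of all genes. The cytokine Il1b, among the 15 counted as positive and the 4 counted as higher, passed the filter through the Old arrays alone. It was measured on 0 of 3 Young arrays. Its adjusted p by limma (0.0213) therefore rests on unmeasured Young signals and is not read as a result. The mean Old signal of Il1b was 2.70-fold that of the dimmest signals called above background on the Young arrays. That ratio is not a strict bound, since a signal above such a level is not always called above background. Runx1 had 2.75 ± 0.41 (adjusted p = 0.0676). The AP-1 genes Junb and Fos had 1.48 ± 0.44 and 1.03 ± 0.39, with adjusted p of 0.227 and 0.304 by limma. Junb read -1.63, -2.88 and -1.13 in Old replicates 1 to 3. The other AP-1 genes tested, Jun, Jund, Fosb and Fosl2, had log2 differences of -0.12, 0.02, 0.12 and 0.20.

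**Figure D3:**
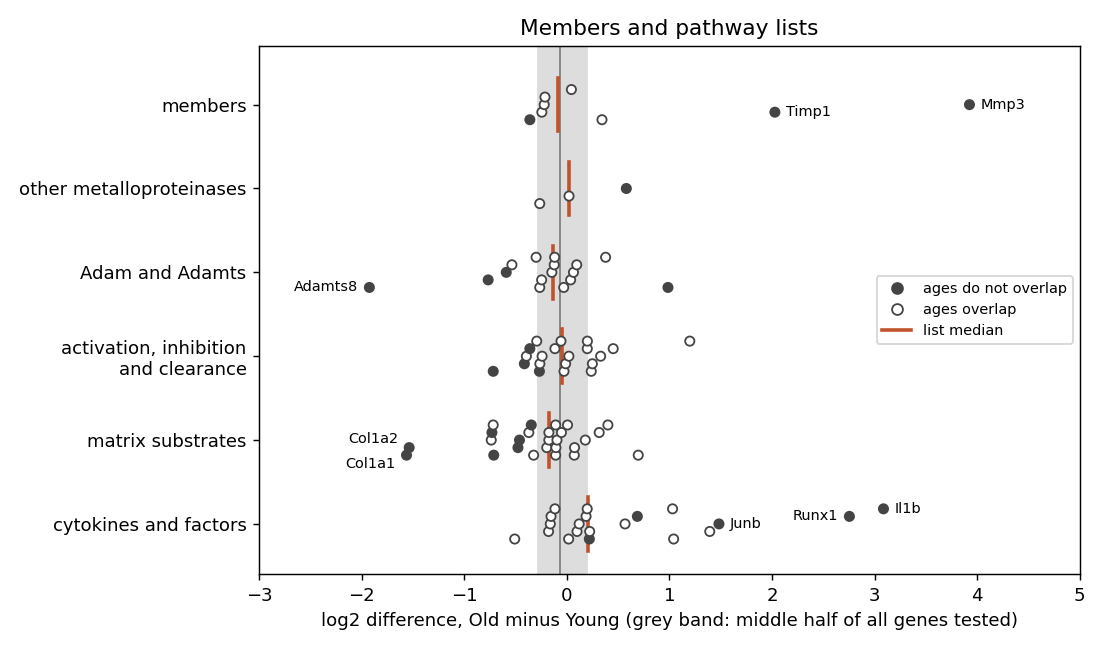
Each point is the log2 difference, Old minus Young, of a tested gene, in rows for the 8 members and the 5 pathway lists, with each row's median as an orange bar; the grey band spans the quartiles of all genes tested, from -0.28 to 0.19, and filled points are genes whose ages do not overlap. Mmp3 and Timp1 lie far to the right of the other members, and Col1a1, Col1a2 and Adamts8 lie furthest to the left. Il1b, a filled point, was measured on Old arrays alone.

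Markers of other cell types in the muscle were read on the same arrays. In bulk samples, fewer cells of a type and less RNA per cell cannot be told apart. After adjustment limma called 2 neutrophil markers (S100a8 and S100a9, higher in Old), 1 tendon marker (Kera, lower) and 1 Schwann cell marker (Prx, lower). It called 0 markers of muscle fibres, fibroblasts, endothelial, mural, macrophage, satellite or adipose cells. Counts below are at an unadjusted p under 0.05, which 6.07% of all genes passed as higher and 8.39% as lower. Summed signals are in multiples of the array's 75th percentile.

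Of 14 macrophage markers 13 were tested, and 7 were higher and 0 lower. The brightest of them, Itgam and Csf1r, had log2 differences of -0.26 ± 0.19 and -0.05 ± 0.16, and Cd163 was not above background on any of the 6 arrays. The summed signal ran from 52.4 to 58.8 in Young and from 62.3 to 64.9 in Old. The markers' median deviation, each marker taken relative to its mean over the 6 arrays, was 0.36, 0.12 and 0.52 in Old replicates 1 to 3 and -0.29, -0.33 and -0.30 in Young.

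Of 10 neutrophil markers 5 were tested, and 3 were higher, of which Retnlg was measured on Old arrays alone, and 1 was lower. S100a9 and S100a8 had log2 differences of 4.70 ± 0.30 and 4.80 ± 0.31 and made up most of the summed signal in Old. The sum ran from 1.40 to 1.95 in Young and from 17.0 to 25.2 in Old. The granule genes Camp and Elane had -0.40 ± 0.15 and -0.31 ± 0.18, each with every Old value below every Young value. Mpo and Ngp were not above background on any of the 6 arrays. The median deviation of the 5 tested markers was that of Retnlg, which no Young array measured, so it is not given.

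Of 12 fibroblast markers 2 were lower and 0 higher, and 4 had a positive difference. Those 2 were Dcn and Gsn, at -0.85 ± 0.34 and -0.63 ± 0.23, which are also the brightest of the list. The summed signal, to which they contribute most, ran from 570.5 to 635.3 in Young and from 366.4 to 492.0 in Old. The markers' median deviations overlapped, at 0.02, 0.03 and 0.26 in Young and -0.23, -0.03 and 0.06 in Old.

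The summed signal of 10 mural and smooth muscle markers ran from 82.2 to 91.2 in Young and from 62.2 to 69.9 in Old, with 3 markers lower and 0 higher. For 11 endothelial markers it ran from 134.3 to 161.0 and from 90.2 to 116.9, also with 3 lower and 0 higher. Of 8 tendon markers 7 were lower and 1, Scx, was higher (1.35 ± 0.40), while their summed signals overlapped (71.4 to 78.9 in Young, 47.3 to 84.4 in Old). Of 8 Schwann cell markers 6 were lower and 1 higher, also with overlapping sums (25.3 to 45.1 in Young, 25.1 to 42.0 in Old). The sums of the satellite cell and adipocyte markers overlapped as well. The part of all these markers in the differences of Mmp3, Timp1 and Timp3 was not tested.

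**Figure D4:**
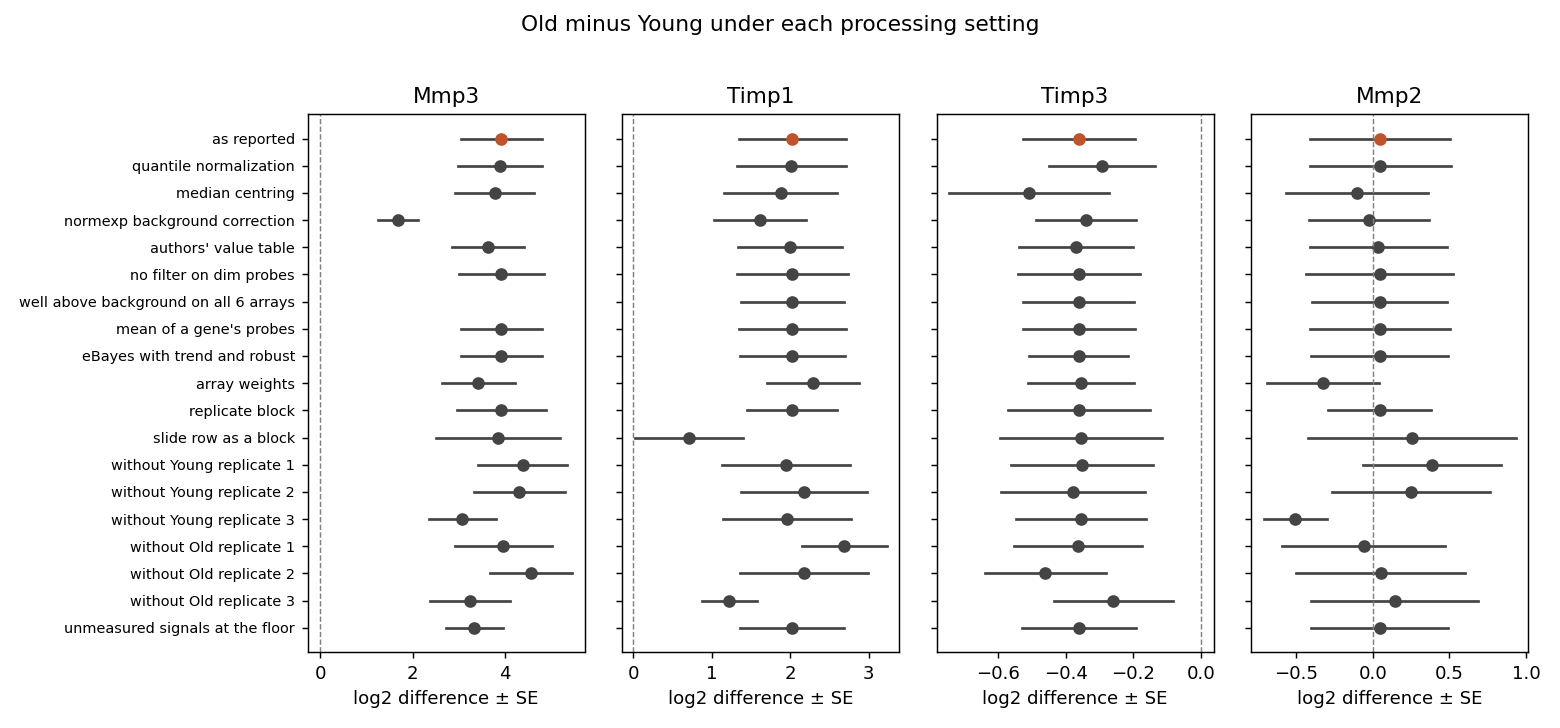
The log2 difference, Old minus Young, with its SE (horizontal axis, a different scale in each panel) of Mmp3, Timp1, Timp3 and Mmp2 is shown for the reported fit (orange) and each alternative (rows). Mmp3 and Timp1 stayed above 0 and Timp3 below 0 in every fit that tested them, while Mmp2 lay on either side of 0.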

How the data were processed

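Agilent Feature Extraction 11.0.1.1 made the scanner files, per the file headers, while version 9.5 is named in the submitters' processing notes. The deposited intensity per spot is background-subtracted and detrended. The authors' deposited value table holds the same intensity as a rounded percent of each array's 75th percentile (62976 of 62976 values per array within 0.5), and was used as an alternative with a pseudocount of 1.

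Control spots and spots flagged as outliers (161 to 212 per array) were left out. Log2 processed signals were averaged over the spots of a probe, and the array's 75th percentile over gene probes was subtracted. A probe was well above background on an array where at least 0.5 of its spots were. Of 55681 probes, 28331 matched the RefSeq gene table by accession. The other probes went under their array names, and each such name counted as a gene. The array grid names mm9, so that table's coordinates are not printed, and it served for names and for which genes neighbour or enclose each other. The stretches before gene starts came separately from RefSeq, and their printed coordinates are on GRCm38.p6. A probe was kept where 3 or more of the 6 arrays measured it above background, and a gene was its brightest kept probe.

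Old was compared with Young by limma 3.58.1 (lmFit, eBayes, two-sided) in R 4.3.3, tested on simulated data, with Benjamini-Hochberg adjustment over all genes. An exact permutation test of 3 against 3 cannot go below 0.1 and was not used. All arrays shared 1 slide. Members and lists were chosen with earlier results of these data known. The text names all members, in each pathway list the 4 genes of lowest p and any past the threshold, the 5 genes most like the metalloproteinase and the Timp of lowest p, and examples of cell type markers. The rule names 2 markers of highest signal per cell type. Mpo, Ngp, Cd163, Camp, Elane, Retnlg, Kera, Prx, Jun, Jund, Fosb and Fosl2 were named after their values were seen. Figures were drawn with matplotlib 3.10.9.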

Additional observations from a re-analysis of the deposited data

How the results depend on the processing

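No member passed limma's adjusted threshold of 0.05 in any of the alternatives in which it was tested. The lowest adjusted p was 0.0893 for Mmp3 (array weights) and 0.0900 for Timp1 (without Old replicate 1), and the highest were 0.425 and 0.689. Mmp3 was not tested when probes had to be well above background on all 6 arrays. Mmp3, Mmp14, Mmp15, Timp1 and Timp3 kept their sign in every alternative that tested them. Leaving out each array in turn gave 3.08 to 4.57 for Mmp3, 1.22 to 2.69 for Timp1 and -0.46 to -0.26 for Timp3. An alternative chosen after seeing the data, which raised every signal not above background to the dimmest one that was, gave 3.33 for Mmp3 and called 72 genes. Differences near 0 turned. That of Mmp2 was -0.10 with median centring, -0.025 with normexp and -0.33 with array weights, and ran from -0.51 to 0.39 when an array was left out. That of Timp4 was 0.16 in the fit blocked by slide row and ran from -0.69 to 0.025 when an array was left out, and that of Timp2 from -0.35 to 0.00069.

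The number of genes called, 53, was 8 with no filter on dim probes, 194 with array weights and 35 where a probe had to be measured on all 6 arrays. It ran from 1 (without Old replicate 3) to 186 (without Old replicate 1) when an array was left out, and lay from 6 to 17 without any other array. Median centring moved the median of all genes from -0.06 to -0.21. Correlations of deviations between same-numbered samples were -0.06, -0.27 and 0.03 for numbers 1 to 3. These cannot settle whether the numbers pair the samples, since each age has only 3. With the replicate block 5 genes were called. The cause of these changes was not tested. Signal over background limits Mmp9, Mmp8 and Young replicate 3 of Mmp3.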

Other observations

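By RefSeq's gene bounds, 3 of the Timp genes lie within the bounds of a synapsin gene: Timp1 within Syn1, Timp4 within Syn2 and Timp3 within Syn3. Of these synapsin genes, which encode proteins of synaptic vesicles, Syn2 alone passed the filter on dim probes. It read -0.89, -0.17 and -0.02 in Young and 1.12, -0.51 and -0.42 in Old replicates 1 to 3, a log2 difference of 0.43 ± 0.47 with an adjusted p of 0.699 by limma. Its highest array was Old replicate 1, while that of Timp4 was Young replicate 1.

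The collagenase-like Mmp1b was well above background on 1 array, Young replicate 1, where its log2 signal was -1.87, and not on the other 5, where it ran from -5.72 to -4.01. Mmp19 was well above background on Old replicate 3 alone, at -3.20.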
